A study of Homo sapiens with 16 samples.

Results

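The comparison described here concerns mild antibody excess in H3K27ac ChIP-seq of K562, a human erythroleukemia cell line with an open fetal and embryonic globin program. It takes 4 of the 16 libraries of the series, chosen by the antibody titer and the amount of chromatin in the ChIP reaction. Earlier results of these data, including peak number and covered length, were known when the comparison was chosen. The titer is the amount of anti-H3K27ac antibody relative to the DNA content of the chromatin input (DNAchrom), with 0.25 µg of antibody per 10 µg of DNAchrom set as titer 1 (T1). Library 2.5-T4 was made from 2.5 µg of DNAchrom and 0.25 µg of antibody (titer 4), and 5-T2 from 5 µg of DNAchrom and the same 0.25 µg (titer 2), which are the fixed-antibody libraries. Their matched normalized libraries received antibody at titer 1, 0.0625 µg in 2.5-T1 and 0.125 µg in 5-T1. All reactions used fixed, untreated K562 cells, a single cell line, and 1 library was sequenced per condition. The 2 libraries made from 10 µg of DNAchrom at titer 1, 10-T1a of the fixed-antibody arm and 10-T1b of the normalized arm, do not differ in titer and serve as the measure of how far the arms differ without antibody excess. The arms also used different input libraries, so that arm, input and preparation cannot be told apart.

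Acetylation of histone H3 at lysine 27 is carried by nucleosomes at active promoters and enhancers, where it is written by the acetyltransferases p300 and CBP and removed by histone deacetylases. Around an active transcription start site (TSS) the mark lies on the nucleosomes on either side, while the DNA just upstream of the TSS is often depleted of nucleosomes. In strongly expressed lineage genes and at clustered enhancers the marked nucleosomes extend over many kilobases, and peak callers report these stretches as broad peaks or as groups of adjacent peaks.

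The data are lists of peaks called separately in each library, and peaks with a q-value of at most 1% (−log10 q of at least 2) were used, on GRCh38. The 4 lists held 319168 peaks, of 1065840 in the 14 peak lists of the series. The lists do not give the number of reads behind a peak. In the mapping summary of the study the fixed-antibody library had more uniquely mapped read pairs than its normalized partner in both pairs, as had 10-T1a than 10-T1b, and the part of depth in the differences was not tested. With 2 pairs at different titers an exact sign-flip test cannot give a p below 0.5, so differences are set beside that between 10-T1a and 10-T1b, and no p-value is given. Intervals on shares are 95% Wilson intervals and cover counting error only. As a check of the cell type, 11 of 12 erythroid markers had a promoter peak (at most 1 kb from the TSS) in all 4 libraries, the exception being the embryonic globin gene HBE1, which had none in 5-T2. Of 13 markers of lymphoid, monocytic, hepatic, neuronal, muscle, skin and islet cells, 2 had such a peak in all 4 libraries and 9 in none.

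With excess antibody the number of peaks was nearly the same and the peaks were shorter. There were 78045 peaks in 2.5-T4 and 77091 in 2.5-T1, a change of 1.24%, and 81930 in 5-T2 and 82102 in 5-T1, a change of -0.209%. At titer 1 in both arms there were 79433 peaks in 10-T1a and 79967 in 10-T1b, a change of -0.668%. The difference in number within both pairs was thus of the order of that between the arms at the same titer. The peak numbers reported by the study were lower for each of these libraries. In those numbers the fixed-antibody library had fewer peaks than its normalized partner in both pairs, as had 10-T1a than 10-T1b. The source of the difference between the counts was not tested. The covered length was 50.9 Mb in 2.5-T4 and 67.4 Mb in 2.5-T1, a change of -24.4% with excess antibody (log2 ratio -0.40). It was 61.7 Mb in 5-T2 and 75.3 Mb in 5-T1, a change of -18.0% (log2 ratio -0.29). Between 10-T1a and 10-T1b, with 65.3 and 72.2 Mb, the change was -9.52% (log2 ratio -0.14), of the same sign. Both fixed-antibody libraries covered less than the 4 libraries of titer 1 compared here (2.5-T1, 5-T1, 10-T1a and 10-T1b), and 2.5-T4 covered the least. The other libraries of titer 1 in the series were not compared in covered length. The loss was seen on each of the 23 chromosomes from 1 to 22 and X in both pairs, and ranged in the 2.5 µg pair from -19.6% on chromosome 16 to -33.5% on chromosome X. 10-T1a was also below 10-T1b on each of them, with changes of -7.43% to -13.7%.

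The median peak width was 387 bp in 2.5-T4 and 466 bp in 2.5-T1, and 414 bp in 5-T2 and 477 bp in 5-T1, compared with 436 and 464 bp in 10-T1a and 10-T1b. The difference grew with width. At the 90th percentile the widths were 1419 and 1985 bp in the 2.5 µg pair and 1693 and 2118 bp in the 5 µg pair. The narrowest peak was 157 bp wide in 2.5-T4, 158 bp in 5-T2 and 159 bp in 10-T1a, and 172, 173 and 166 bp in 2.5-T1, 5-T1 and 10-T1b. The lower end of the width range therefore followed the arm at every titer, and its part in the medians was not tested.

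**Figure D1:**
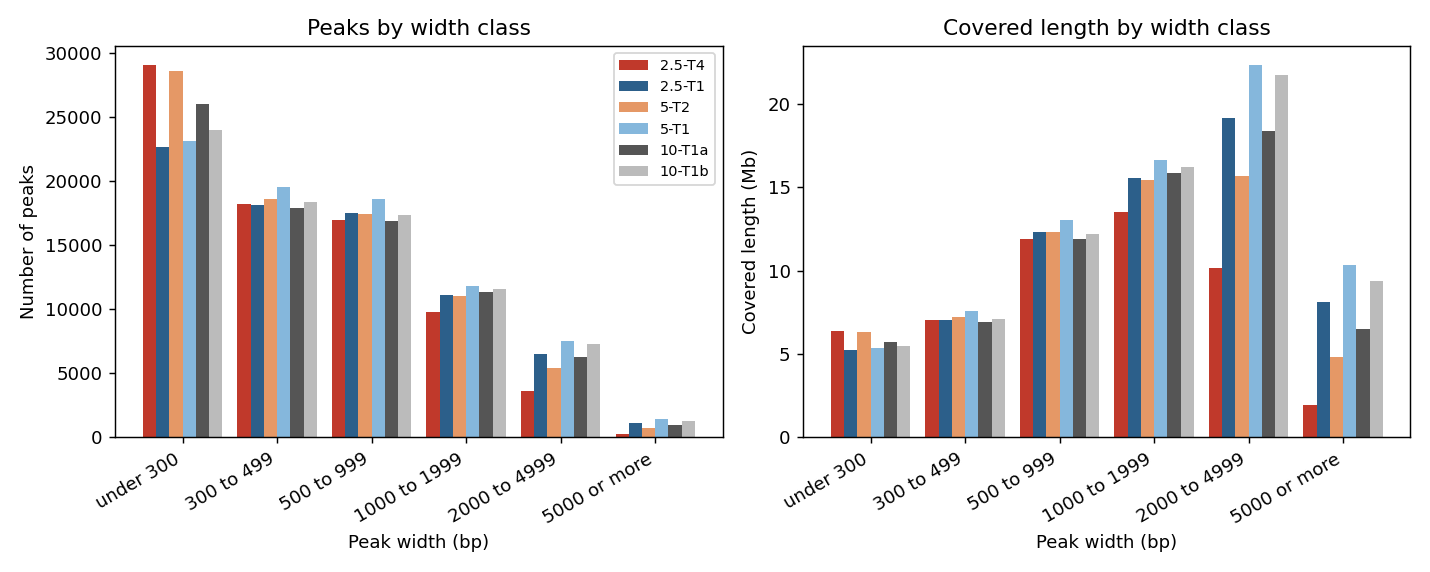
Number of peaks (left) and covered length in Mb (right) in 6 classes of peak width in bp, with 1 bar per library. With excess antibody the narrowest class gained peaks and the classes from 2000 bp upward lost most of the covered length, whereas the classes from 300 bp to under 1 kb differed little.

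The plot of peaks by width class shows where the peak number was made up. Peaks under 300 bp numbered 29126 in 2.5-T4 and 22721 in 2.5-T1, and 28660 in 5-T2 and 23158 in 5-T1. Peaks of 5 kb or more numbered 290 in 2.5-T4 and 1135 in 2.5-T1, a 3.91-fold difference, and 699 in 5-T2 and 1416 in 5-T1. The same classes differed between 10-T1a and 10-T1b by 26071 to 24023 narrow peaks and by 929 to 1296 broad peaks, in the same direction and to a smaller extent. A gain of 6405 narrow peaks in 2.5-T4 and of 5502 in 5-T2 thus stood beside changes of -845 and -717 in the number of the broadest ones. The broadest class held 12.1% of the covered length in 2.5-T1 and 3.78% in 2.5-T4.

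Broad peaks of the normalized libraries were found in pieces with excess antibody. Of the 77091 peaks of 2.5-T1, 13.01% (12.8 to 13.2) overlapped 2 or more peaks of 2.5-T4, whereas 3.97% (3.83 to 4.11) of the 2.5-T4 peaks overlapped 2 or more of 2.5-T1. In the 5 µg pair the shares were 12.4% (12.2 to 12.6) and 5.44%. Between 10-T1b and 10-T1a they were 10.7% (10.5 to 10.9) and 7.31%. The difference of the 2 directions was therefore 9.04 percentage points in the 2.5 µg pair, 6.95 in the 5 µg pair and 3.39 for 10-T1b and 10-T1a. Of peaks at least 5 kb wide, 91.4% (89.6 to 92.9) of those of 2.5-T1 were split in 2.5-T4 and 80.0% (77.9 to 82.0) of those of 5-T1 in 5-T2, while 71.3% (68.8 to 73.7) of those of 10-T1b were split in 10-T1a. Splitting was also common between the normalized libraries themselves, with 64.5% of the 5-T1 peaks of this width split in 2.5-T1.

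**Figure D2:**
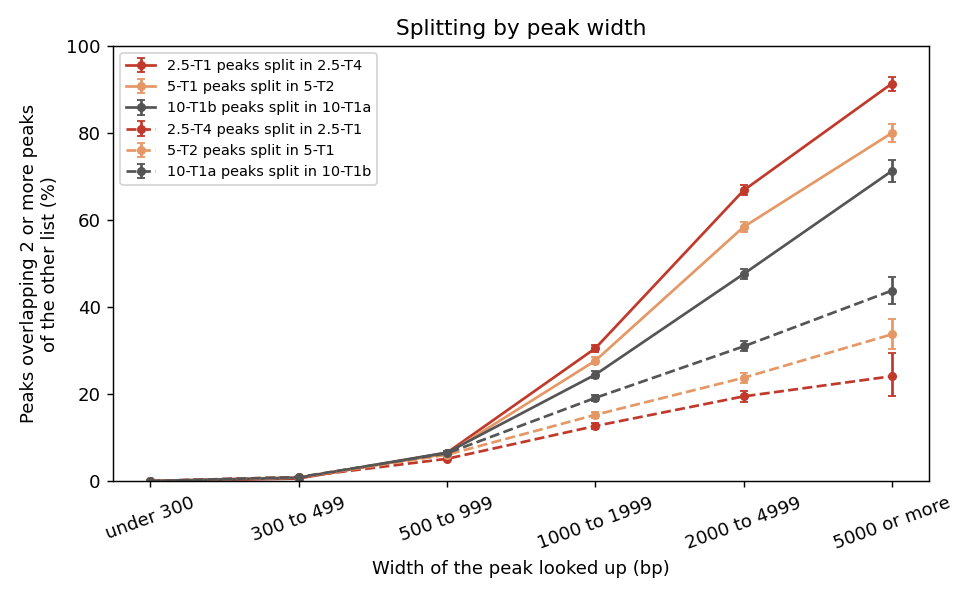
Percentage of peaks that overlap at least 2 peaks of the other list (y axis), by the width of the peak looked up in bp (x axis), with 95% Wilson intervals. Solid lines look up normalized peaks in the fixed-antibody list and dashed lines the reverse, so that the distance between the lines of 1 colour, widest for 2.5-T1 and 2.5-T4, is the asymmetry.

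The 10030 split peaks of 2.5-T1 corresponded to 24289 pieces in 2.5-T4, with up to 11 pieces for 1 peak, and the 10176 split peaks of 5-T1 to 23726 pieces in 5-T2. The gaps between pieces were short, with a median of 240 bp in 2.5-T4 and 233 bp in 5-T2, close to the 229 bp of 10-T1a. When peaks of a list separated by at most 300 bp were first joined, the difference of the 2 directions was 7.45 points in the 2.5 µg pair and 5.14 in the 5 µg pair. Inner gaps were the smallest part of the bases lost. Of 28.5 Mb covered in 2.5-T1 and not in 2.5-T4, 44.7% lay in peaks with no counterpart, 39.2% at the trimmed ends of peaks with one, and 16.1% in inner gaps. Of 27.6 Mb in the 5 µg pair the shares were 46.1%, 38.7% and 15.2%. The make-up was nearly the same for the 22.4 Mb of 10-T1b not covered in 10-T1a, at 46.5%, 39.2% and 14.3%, and for the 21.9 Mb of 5-T1 not covered in 2.5-T1, at 47.3%, 39.2% and 13.5%. Those missed peaks of 2.5-T1 were narrow and weak in their own list, with a median width of 299 bp and a median fold enrichment of 4.07, compared with 6.22 for the peaks found again. Those of 10-T1b missed in 10-T1a were alike, with 284 bp and 4.08 compared with 6.17. In the other direction 12.0 Mb of 2.5-T4 and 14.01 Mb of 5-T2 were not covered in the normalized library.

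Peaks that matched 1 to 1 were also narrower. The median ratio of widths was 0.836 over 27942 matched peaks of 2.5-T4 and 2.5-T1 and 0.889 over 30534 of 5-T2 and 5-T1, compared with 0.953 over 31290 of 10-T1a and 10-T1b. Both ends moved inward alike, by a median of 26 and 27 bp in the 2.5 µg pair and 18 bp at each end in the 5 µg pair. Summits lay a median of 115 and 113 bp apart, compared with 107 bp between 10-T1a and 10-T1b.

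To follow broad regions that none of the 4 libraries had defined, 5499 reference domains of at least 5 kb were taken from the peaks of 10-T1a and 10-T1b joined over gaps of at most 1 kb. They span 52.3 Mb, and 2848 of them contain a TSS. Peaks covered 52.6% of these bases in 2.5-T4 and 67.3% in 2.5-T1, and 61.9% in 5-T2 and 72.3% in 5-T1. The libraries that defined the domains covered 66.7% (10-T1a) and 73.4% (10-T1b). The mean number of pieces per domain was 5.56 in 2.5-T4 and 4.65 in 2.5-T1, and 5.21 in 5-T2 and 4.46 in 5-T1. It was 5.31 in 10-T1a and 5.09 in 10-T1b, so that 10-T1a had more pieces than 5-T2 and both had more than the normalized libraries of the pairs. Of the 5499 domains, 576 (10.5%) were covered at least 1.5-fold less in both pairs and 19 (0.346%) at least 1.5-fold more, and 1792 (32.6%) contained more peaks in both fixed-antibody libraries while 488 (8.87%) contained fewer. In single comparisons 55.1% of domains contained more pieces in 2.5-T4, 52.8% in 5-T2 and 43.0% in 10-T1a than in the normalized library, and 27.8%, 15.5% and 10.7% were covered at least 1.5-fold less. Domains with a TSS kept 55.4% coverage in 2.5-T4 and domains without a TSS 49.2%, from 69.2% and 65.0% in 2.5-T1. In the same order the values were 64.4% and 58.9% in 5-T2, from 74.1% and 70.1% in 5-T1. They were 68.8% and 64.1% in 10-T1a and 74.7% and 71.8% in 10-T1b, so that domains without a TSS were also the lower ones without antibody excess.

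Among the 5 domains that lost most bases, 4 contain a TSS. The domain at chr1:12432627-12482220 contains none, its nearest TSS being that of DHRS3, a retinaldehyde reductase gene. It was covered over 29514 bp in 28 pieces in 2.5-T4 and 42307 bp in 13 pieces in 2.5-T1, and over 34190 bp in 20 pieces in 5-T2 and 44409 bp in 13 pieces in 5-T1. With 35605 bp in 24 pieces in 10-T1a and 44232 bp in 12 pieces in 10-T1b, the domain was broken up without antibody excess as well. The domain at chr16:99433-155340 contains the TSS of NPRL3, a gene whose introns hold the upstream enhancers of the alpha-globin genes, and that of the embryonic globin gene HBZ 13971 bp away. Its coverage was 28865 bp in 2.5-T4 and 42619 bp in 2.5-T1, and 34392 bp in 5-T2 and 42469 bp in 5-T1, with 36611 bp in 10-T1a and 42935 bp in 10-T1b. The longest uninterrupted peak of the NPRL3 domain measured 2610 bp in 2.5-T4, 3432 bp in 5-T2, 5258 bp in 2.5-T1 and 10637 bp in 5-T1. The fixed-antibody libraries were the lowest of the 6 on both measures. The other domains of largest loss contain the TSSs of FAM178B (chr2:96856525-96935794), the RNA exonuclease gene REXO1 (chr19:1817577-1876976) and the phosphatase gene PTP4A2 (chr1:31917484-31946775). PTP4A2 had the lowest coverage of these, 38.7% in 2.5-T4 and 58.0% in 5-T2 compared with 81.5% and 76.9% in 2.5-T1 and 5-T1. With 55.8% in 10-T1a and 78.8% in 10-T1b, it was also low in the fixed-antibody library of titer 1.

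**Figure D3:**
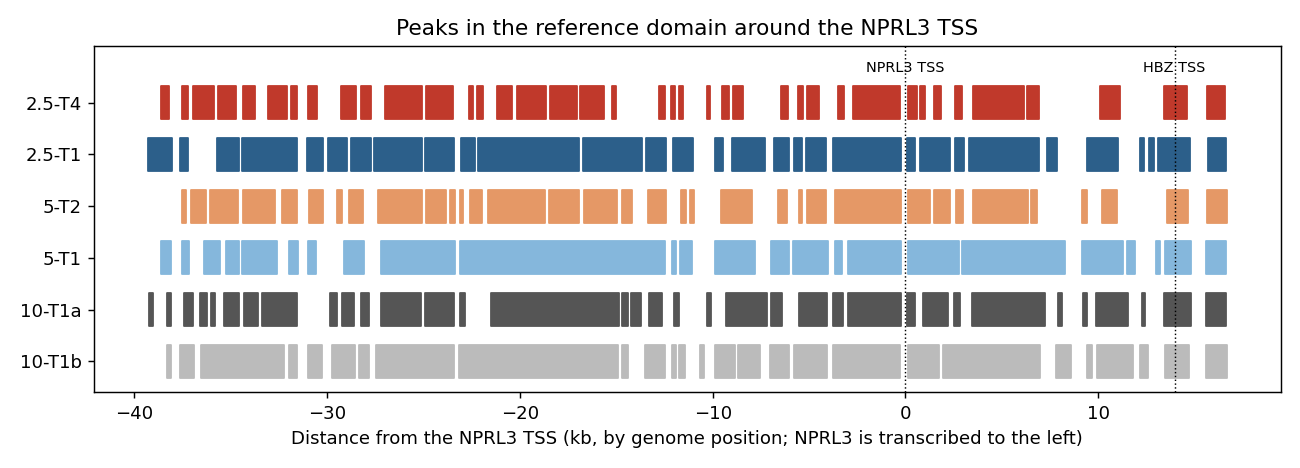
Peaks (bars) of 6 libraries in the reference domain around the NPRL3 TSS, by distance in kb along the genome, with dotted lines at the TSSs of NPRL3 and HBZ. The stretch to the left of the NPRL3 TSS was reported as long peaks in 5-T1 and 10-T1b and as many short peaks in 2.5-T4 and 5-T2, and 10-T1a lay between them.

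The most added pieces were found in the FAM178B domain, with 39 pieces in 2.5-T4 and 22 in 2.5-T1, and 29 in 5-T2 and 12 in 5-T1. It was followed by the domain of SLC2A1, the glucose transporter GLUT1, with 30 and 11 pieces in the 2.5 µg pair and 19 and 8 in the 5 µg pair. The domain next to the TSS of BCL2L1, which encodes the survival protein BCL-xL, had 38 and 20 pieces and 28 and 18 pieces. The domain containing the TSS of ASIC4, an ion channel gene, and the one nearest to PICALM, a clathrin assembly gene, gained a mean of 13.5 and 12.5 pieces. In all 5 of these domains 10-T1a also had more pieces than 10-T1b, with 31 and 15 for FAM178B and 18 and 8 for SLC2A1.

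Promoter and distal sites differed in what was lost. Promoter peaks, those within 1 kb of a TSS of 1 of 19630 protein-coding genes, were more numerous with excess antibody, at 16142 in 2.5-T4 and 14744 in 2.5-T1, and 15601 in 5-T2 and 14633 in 5-T1. Their median width was lower, at 815 and 1112 bp in the 2.5 µg pair and 985 and 1237 bp in the 5 µg pair. Distal peaks, more than 5 kb from any TSS, were fewer, at 48750 and 50178, and 53009 and 54704, and were also narrower, at 332 and 401 bp and at 354 and 412 bp. The corresponding numbers of 10-T1a and 10-T1b were 15198 and 15050 promoter peaks and 51656 and 52403 distal peaks. Of promoter peaks of 2.5-T1, 10.2% had no counterpart in 2.5-T4 and 26.2% were split, while of distal peaks 53.2% had no counterpart and 10.1% were split. In the 5 µg pair these shares were 9.30% and 24.5% at promoters and 49.5% and 9.89% at distal sites. Between 10-T1b and 10-T1a they were 7.51% and 18.2%, and 45.3% and 9.16%. In the reverse direction distal peaks also lacked a counterpart more often. Of 2.5-T4 peaks, 6.81% at promoters and 39.5% at distal sites had none in 2.5-T1. The shares were 6.04% and 38.8% for 5-T2 in 5-T1, and 6.53% and 39.4% for 10-T1a in 10-T1b.

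Counted base by base, the covered length within 1 kb of a TSS was 11.9 Mb in 2.5-T4 and 13.4 Mb in 2.5-T1 (-11.1%), and 13.03 Mb in 5-T2 and 14.2 Mb in 5-T1 (-7.92%). More than 5 kb from a TSS it was 27.8 and 38.5 Mb (-27.7%), and 34.8 and 43.8 Mb (-20.5%). The difference of the log2 ratios, promoter minus distal, was 0.30 in the 2.5 µg pair, 0.21 in the 5 µg pair and 0.13 between 10-T1a and 10-T1b. When whole peaks were assigned to the classes in place of bases, covered length changed by -24.8% at promoters and -26.5% at distal sites in the 2.5 µg pair, and by -17.8% and -19.6% in the 5 µg pair. Promoter and distal sites thus differed little when the parts of promoter peaks beyond 1 kb were counted as promoter length.

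The same contrast was followed in 49552 regions, the peaks of 10-T1b that 10-T1a also overlapped. The regions were thus set in the normalized arm, and both of these libraries have a peak in each region by construction. They therefore give no measure here of how far the arms differ at titer 1. A peak was found in 93.6% of the 13920 promoter regions in 2.5-T4 and 95.8% in 2.5-T1, and in 69.8% and 79.9% of the 28668 distal regions. In the 5 µg pair these values were 95.8% and 97.1% at promoters and 78.8% and 83.9% at distal sites. Promoter regions were stronger, so regions were also divided into 5 equal groups by fold enrichment in 10-T1b. The loss was larger at distal sites in each of the 5 groups of the 2.5 µg pair and in 4 of the 5 µg pair, where in the weakest group it was -2.82 points at promoters and -1.54 points at distal sites. In the middle group, 87.0% of promoter regions had a peak in 2.5-T4 and 93.8% in 2.5-T1, and 73.5% and 89.5% of distal regions did. In the highest group nearly all regions were found, 99.9% at promoters and 99.4% at distal sites in 2.5-T4. Of all regions, 2053 (4.14%) had a peak in both normalized and in neither fixed-antibody library, and 736 (1.49%) the reverse. The first kind made up 1.08% of promoter and 5.29% of distal regions, the second 0.395% and 1.92%.

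Genes with a promoter peak hardly changed in number, at 10753 in 2.5-T4 and 10821 in 2.5-T1, 10849 in 5-T2 and 11019 in 5-T1, and 10950 and 10933 in 10-T1a and 10-T1b. Of the genes of 2.5-T1, 96.2% kept such a peak in 2.5-T4, and of those of 5-T1, 95.8% in 5-T2. The corresponding share between 10-T1b and 10-T1a was 97.2%. In both normalized and neither fixed-antibody library such a peak was present at 121 of the 19630 genes (0.616%), and the reverse held for 72 (0.367%).

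At the TSS itself the lists differed more. The base 100 bp upstream of the TSS was under a peak at 17.1% of genes in 2.5-T4 and 23.1% in 2.5-T1, a ratio of 0.740, and at 20.5% in 5-T2 and 25.7% in 5-T1, a ratio of 0.799. At 10-T1a and 10-T1b the shares were 23.5% and 24.0%, a ratio of 0.980. At 300 bp downstream the ratios were 0.955 and 0.969, and 0.990 for 10-T1a and 10-T1b. At 2100 bp upstream they were 0.687 and 0.769, and 0.852 for 10-T1a and 10-T1b. Coverage was thus lower with excess antibody both beyond the flanks and in the dip at the TSS, and of these the arms at titer 1 differed in the flanks.

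**Figure D4:**
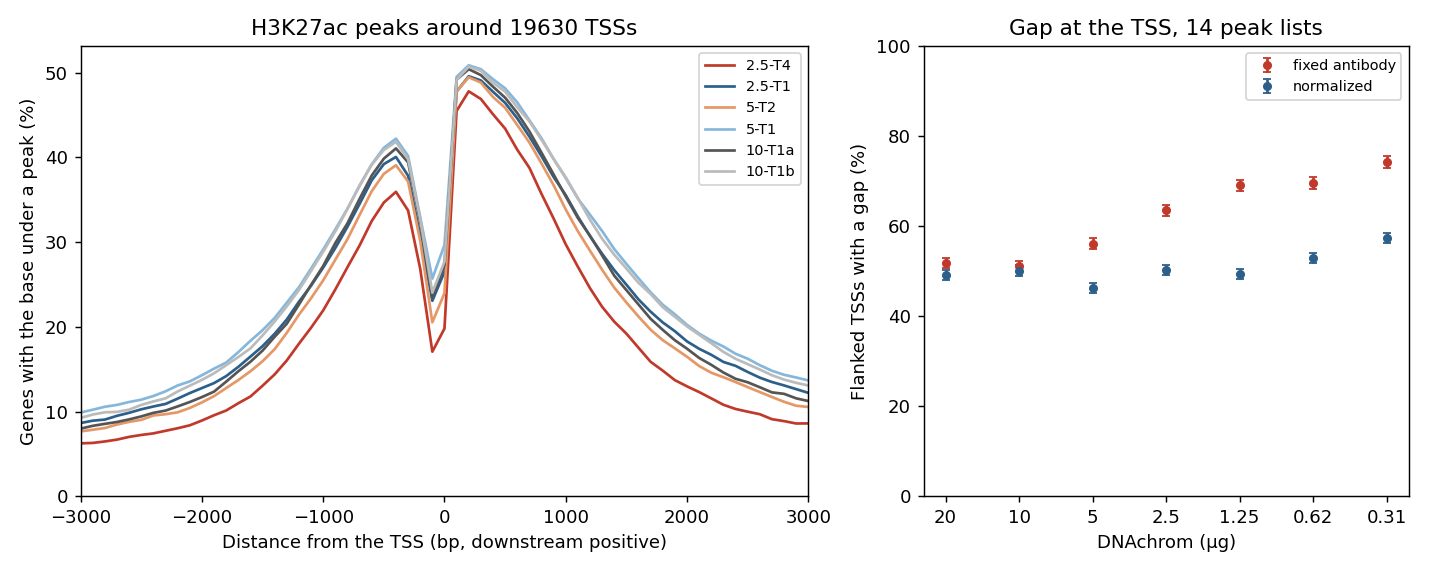
Left, percentage of 19630 protein-coding genes with the base under a peak, by distance from the TSS in bp, for 6 libraries. Right, percentage of flanked TSSs with a gap, with 95% Wilson intervals, in all 14 lists by DNAchrom in µg, where 2.5-T4 and 5-T2 stand above their normalized partners and the points at 10 µg lie close together.

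A TSS was called flanked when the bases 400 bp upstream and 200 bp downstream were both under a peak, and gapped when the base 100 bp upstream was not. These positions were chosen after the profile had been seen. In 2.5-T4, 4068 of 6405 flanked TSSs were gapped, 63.5% (62.3 to 64.7), and in 2.5-T1 3689 of 7352, 50.2% (49.0 to 51.3). In 5-T2 the share was 56.1% (55.0 to 57.3) and in 5-T1 46.3% (45.2 to 47.5). It was 51.1% in 10-T1a and 50.1% in 10-T1b. The difference was 13.3 percentage points in the 2.5 µg pair, 9.77 in the 5 µg pair and 0.941 between 10-T1a and 10-T1b. Over genes flanked in both libraries of a pair, 951 were gapped in 2.5-T4 alone and 132 in 2.5-T1 alone, 871 in 5-T2 alone and 194 in 5-T1 alone, and 485 and 400 in 10-T1a and 10-T1b alone. In the other fixed-antibody libraries the share was 51.8% with a titer of 0.5, 69.1% with 8, 69.6% with 16 and 74.2% with 32. In the other normalized libraries it was 49.1% to 57.3%, with the highest value in 0.31-T1. Of the 14259 inner gaps that split 2.5-T1 peaks in 2.5-T4, 7.74% (7.31 to 8.19) reached into the 200 bp upstream of a TSS, and 7.41% (6.98 to 7.86) of those that split 5-T1 peaks in 5-T2 did. The share was 5.39% (4.98 to 5.83) of those that split 10-T1b peaks in 10-T1a. In the opposite direction it was 4.84% for 2.5-T4 peaks in 2.5-T1 and 4.25% for 5-T2 peaks in 5-T1, but 7.18% (6.58 to 7.83) for 10-T1a peaks in 10-T1b, so that the share at TSSs also reached this size without antibody excess.

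A new gap, by this rule present in both fixed-antibody libraries and in neither normalized one, was found at 353 of 5597 genes flanked in all 4 libraries (6.31%). The reverse was found at 13 (0.232%). The rule reads single bases, so a TSS that was not gapped need not lie under 1 continuous peak. JUNB and MYB, members of the gene lists described further on, are shown because each had such a gap in 1 stretch, and were chosen after this was seen. JUNB encodes an AP-1 transcription factor of the immediate early response and MYB a transcription factor of hematopoietic progenitors. TAL1, a master regulator of the erythroid lineage, is shown beside them as a gene gapped in all 4 libraries. The sequences run from 250 bp upstream of the TSS to 19 bp downstream, with the TSS counted as 0, from RefSeq on GRCh38.p14, and capitals mark bases under a peak in both normalized and in neither fixed-antibody library. They lie at chr19:12791236-12791505 on the plus strand (JUNB), chr6:135181058-135181327 on the plus strand (MYB) and chr1:47232316-47232585 on the minus strand (TAL1).
JUNB: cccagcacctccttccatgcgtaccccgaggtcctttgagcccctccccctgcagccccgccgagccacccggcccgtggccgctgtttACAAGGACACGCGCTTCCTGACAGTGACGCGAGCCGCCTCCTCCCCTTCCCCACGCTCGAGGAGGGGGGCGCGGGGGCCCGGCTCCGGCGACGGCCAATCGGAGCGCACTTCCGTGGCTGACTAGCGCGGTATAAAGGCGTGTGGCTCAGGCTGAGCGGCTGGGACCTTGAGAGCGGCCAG
MYB: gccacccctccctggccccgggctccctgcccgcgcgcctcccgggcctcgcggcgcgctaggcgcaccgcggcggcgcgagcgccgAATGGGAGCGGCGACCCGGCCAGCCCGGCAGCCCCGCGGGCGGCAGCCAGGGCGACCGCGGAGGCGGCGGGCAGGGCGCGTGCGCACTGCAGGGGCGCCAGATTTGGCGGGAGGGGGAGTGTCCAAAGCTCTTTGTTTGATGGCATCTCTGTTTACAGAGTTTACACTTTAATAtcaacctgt
TAL1: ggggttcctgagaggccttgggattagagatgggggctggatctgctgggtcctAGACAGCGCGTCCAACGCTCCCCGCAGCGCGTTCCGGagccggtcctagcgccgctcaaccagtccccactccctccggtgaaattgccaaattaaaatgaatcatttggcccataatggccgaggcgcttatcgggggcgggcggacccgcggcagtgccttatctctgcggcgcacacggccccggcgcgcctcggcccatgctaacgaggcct
The gap of JUNB extends past the printed stretch. At MYB the gap covered positions -163 to 10. The peaks of 2.5-T4 ended at -164 and resumed at 42, and those of 5-T2 ended at -171 and resumed at 11, whereas 1 peak ran from -645 to 6651 in 2.5-T1 and from -686 to 5166 in 5-T1. In 10-T1a and 10-T1b 1 peak also ran across the TSS of MYB. At JUNB the gap covered positions -161 to 48, and 5-T1 had 1 peak from -10140 to 2854. The TSS of JUNB was also gapped in 10-T1a, between -242 and 38, and not in 10-T1b. At TAL1 the peaks left the TSS uncovered in all 6 libraries. The capitals mark the 37 bases, from -196 to -160, that were covered in 2.5-T1 and 5-T1 and not in 2.5-T4 or 5-T2. A peak of 10-T1b also reached into this stretch, as far as -192.

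The promoters of these groups of genes were searched for short motifs on both strands, each counted separately and allowed to overlap. Of 9453 promoters of tested genes in the RefSeq table, 36.9% contained the CCAAT box. It was found in 24.7% of the 291 promoters with a new gap and in 53.9% of the 1921 gapped in all 4 libraries. Among the 1517 flanked in all 4 and gapped in none, called unbroken here, the share was 20.9%. The GC box, GGGCGG, was found in 71.0% of tested promoters, and in 71.8%, 81.5% and 69.3% of the groups in the same order. The ETS motif, CCGGAAG, was found in 20.9%, and in 29.2%, 27.4% and 22.1% of the groups. The TATA motif (TATAAA) was found in 5.41%, and in 2.75%, 4.42% and 4.94%, and the GATA motif (AGATAA) in 4.65%, and in 3.44%, 3.12% and 4.02%. The promoters gapped in all 4 libraries thus held the CCAAT box most often. Those with a new gap were closer to the unbroken ones for the CCAAT and GC boxes. For the ETS, TATA and GATA motifs they were closer to those gapped in all 4. Median GC content was 67.3% with a new gap, 66.0% when gapped in all 4 and 67.3% when unbroken. Within its gap the JUNB promoter holds the CCAAT box and the TATA motif, and the MYB promoter holds the GC box.

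Covered bases within 5 kb of the TSS were compared for 11381 genes with at least 500 covered bases in 1 of the 4 libraries. Of these, 1065 (9.36%) were lower by 1.5-fold or more in both pairs and 163 (1.43%) higher. In single comparisons 26.4% were lower and 5.15% higher in 2.5-T4, 18.5% and 4.15% in 5-T2, and 11.5% and 5.7% in 10-T1a against 10-T1b. Of the 1065 genes that were lower, 395 (37.1%) were also at least 1.5-fold lower in 10-T1a than in 10-T1b, and of the 163 that were higher, 87 (53.4%) were at least 1.5-fold higher there. The median log2 ratio over all tested genes was -0.31 in the 2.5 µg pair, -0.20 in the 5 µg pair and -0.09 between 10-T1a and 10-T1b. Genes that were higher had little coverage, with medians of 284 bp in 2.5-T1 and 796 bp in 2.5-T4. Genes that were lower had medians of 2290 and 1042 bp.

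The largest losses in bases were found at C14orf180, CNOT10, CRACR2B, MXD4, BCL3, RPS6KC1, PPP1R15B, RCCD1, BTG1 and C6orf89. BCL3, an IκB family regulator of NF-κB, was covered over 3048 bp in 2.5-T4 and 5842 bp in 2.5-T1, 2113 bp in 5-T2 and 6789 bp in 5-T1, and 2796 bp in 10-T1a and 6419 bp in 10-T1b. CNOT10, a subunit of the CCR4-NOT deadenylase, was covered over 1810 and 4884 bp, 458 and 5083 bp, and 1251 and 4528 bp in the same order. At both genes 10-T1a was low as well as 2.5-T4 and 5-T2. BTG1, an antiproliferative gene, had 4149 and 6660 bp, 3737 and 8095 bp, and 4439 and 7709 bp. At C14orf180, which had 3874 and 7965 bp, and 4411 and 8073 bp, 10-T1a lay between, with 6081 bp against 8467 bp in 10-T1b. The same held for RPS6KC1, with 4475 and 8542 bp, 5792 and 8968 bp, and 6409 bp in 10-T1a. PPP1R15B, a regulator of eIF2alpha phosphatase, had 3385 and 8101 bp, 4706 and 7117 bp, and 4707 bp in 10-T1a. That the fixed-antibody values lay below the normalized value of their pair follows from how these 10 genes were picked. At all 10 genes the fixed-antibody values also lay below 10-T1b, and 10-T1a lay below 10-T1b.

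Large gains were found at RIN1, GHRL, VAMP5, LST1, ATP2A1, CSF3, NPTXR, RASL10A and TPPP3, of which several are expressed in other tissues, such as the stomach hormone gene GHRL and the muscle calcium pump gene ATP2A1. RIN1 was covered over 2648 bp in 2.5-T4, in no peak in 2.5-T1, 5336 bp in 5-T2 and 2067 bp in 5-T1. CSF3, the cytokine G-CSF, had 1194 bp, no peak, 2191 bp and 427 bp in the same order. GHRL had 2546, 1051, 3869 and 1154 bp. At 8 of these 9 genes 10-T1a also had more covered bases than 10-T1b, as with 2083 and 433 bp at CSF3 and 2407 and 734 bp at LST1, and the exception was ATP2A1 with 1449 and 1871 bp. Loss and gain at these genes were thus accompanied by a difference of the same sign between the arms at titer 1, and the part of titer in them was not tested.

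A promoter peak was present in both normalized libraries, 10-T1a and 10-T1b and absent from both fixed-antibody libraries at 37 of the 19630 genes (0.188%), and the reverse held at 23 (0.117%). Those of the first kind with the highest ranks by fold enrichment were UGT2A3, LANCL3, TFDP2, LYZL6 and LOC124904791. Absence here refers to the promoter only. Within 5 kb of the TSS, UGT2A3 was covered over 2433 bp in 2.5-T4 and 2740 bp in 5-T2, and LOC124904791 over 3627 and 3703 bp. TFDP2, the dimerization partner of E2F factors, had no peak within 5 kb of the TSS in 2.5-T4 and 5-T2, 709 bp in 2.5-T1 and 823 bp in 5-T1, and 481 and 825 bp in 10-T1a and 10-T1b. LYZL6 had 256 and 254 bp with excess antibody, outside the promoter, and 1668 and 1829 bp in the normalized libraries. Those of the second kind were led by LEMD2, ZNF784, LINC02798, RASL11A and IKZF3. LEMD2 had more covered bases within 5 kb in the normalized libraries, 1546 bp in 2.5-T1 and 1712 bp in 5-T1, outside the promoter. It had 1199 bp in 2.5-T4 and 1384 bp in 5-T2. IKZF3, a lymphoid transcription factor of the Ikaros family, had 404 bp in 2.5-T4 and 861 bp in 5-T2, none in 2.5-T1 and 5-T1, and 272 and 590 bp in 10-T1a and 10-T1b. RASL11A had 348 and 284 bp, none in both normalized libraries, and 304 and 271 bp.

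None of 11 tested erythroid transcription factors was 1.5-fold lower or higher in both pairs, against 9.36% and 1.43% of all genes, a difference of about 1 gene in a list of this size. Several of them were covered over most of the window in every library, which limits the ratios they can show. The median log2 ratio averaged over the pairs was -0.10, compared with -0.26 over all tested genes. By any amount, 9 of the 11 were lower in both pairs and 1 was higher, against 60.9% and 9.63% of all tested genes. BCL11A had no peak within 5 kb of the TSS used here. MYB was covered over 5625 bp in 2.5-T4, 5646 bp in 2.5-T1, 5681 bp in 5-T2 and 5687 bp in 5-T1, nearly the same length. It lay in 4, 1, 4 and 1 peaks in this order. GATA1, the lineage-defining factor, had 8405, 8484, 8261 and 9707 bp, and KLF1, the activator of the adult globin genes, 8225, 9130, 9041 and 9153 bp. GFI1B, an erythroid repressor, had 2144, 2421, 1913 and 3740 bp, the lowest ratio of the list. LMO2, the bridging subunit of the TAL1 complex, was covered over 5613 bp in 5 peaks in 2.5-T4 and 7670 bp in 1 peak in 2.5-T1. The number of peaks was higher in both pairs at 6 of the 11 genes, MYB, GATA1, LMO2, KLF1, NFE2 and LDB1, against 18.4% of all tested genes. At MYB, GATA1, LMO2 and LDB1 10-T1a also had more peaks than 10-T1b, as at 32.9% of all tested genes.

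Globin genes lost more. Of 8 tested genes 3 (HBE1, HBB and HBD) were 1.5-fold lower in both pairs, against 9.36% of all tested genes, and the median log2 ratio was -0.56, which became -0.35 at a −log10 q limit of 5. HBE1, the embryonic beta-like globin, was covered over 1540 bp in 2.5-T4, 4431 bp in 2.5-T1, 961 bp in 5-T2 and 4286 bp in 5-T1, with 2478 bp in 10-T1a and 3714 bp in 10-T1b. HBD had 1002, 1610, 1083 and 1775 bp, with 2057 and 1802 bp in 10-T1a and 10-T1b, so that the arms at titer 1 differed in the other direction, as they did at HBB with 813 and 661 bp. HBZ, the embryonic alpha-like globin, had 3124, 4682, 3165 and 5095 bp, with 4428 and 4769 bp in 10-T1a and 10-T1b. At HBE1 and HBZ both fixed-antibody values lay below those of 2.5-T1, 5-T1, 10-T1a and 10-T1b. HBA2 went the other way, with 2591, 2087, 2458 and 1969 bp. HBG1 and HBG2, and HBA1 and HBA2, are near-identical neighbours whose reads and windows overlap, so that their values are uncertain and not independent. The windows of HBB and HBD also overlap, so that the calls of these genes are not independent of each other.

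**Figure D5:**
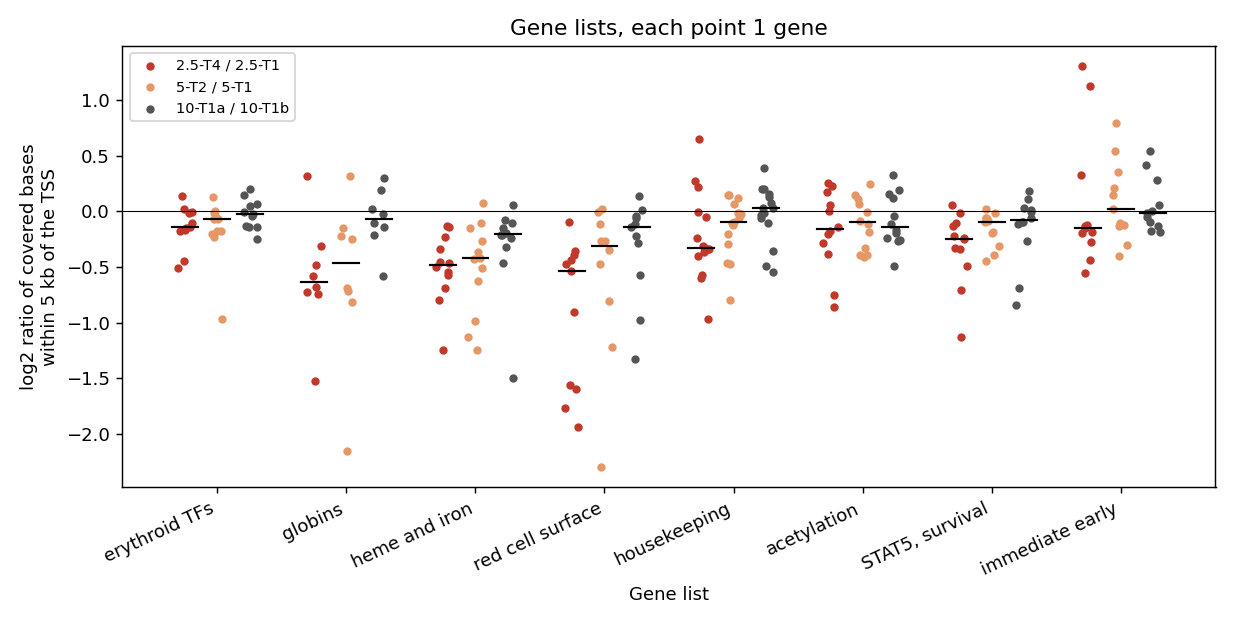
Log2 ratio of covered bases within 5 kb of the TSS, 1 point per gene, for 8 gene lists, in 3 comparisons (2.5-T4 over 2.5-T1, 5-T2 over 5-T1 and 10-T1a over 10-T1b), with black bars at the medians. The globin, heme and red cell surface lists have the lowest medians in both pairs, and the immediate early list includes the highest points.

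Of 12 heme and iron genes 2 were lower in both pairs, CPOX and ALAD, which encode enzymes of heme synthesis, against 9.36% of all tested genes. The median log2 ratio was -0.46, and became -0.21 within 2 kb of the TSS and -0.71 at a −log10 q limit of 5. CPOX had 2376 bp in 2.5-T4, 5625 bp in 2.5-T1, 2802 bp in 5-T2 and 5550 bp in 5-T1, with 3442 and 4763 bp in 10-T1a and 10-T1b. ALAD had 1298, 2092, 946 and 2239 bp, and 826 bp in 10-T1a compared with 2330 bp in 10-T1b. ALAS2, the erythroid enzyme of the first step of heme synthesis, had 3746, 5560, 3750 and 5799 bp, with 4928 and 6167 bp in 10-T1a and 10-T1b. PPOX, a later enzyme, had the highest ratio of the list with 8007, 8841, 8506 and 9458 bp. At CPOX and ALAS2 the values of 2.5-T4 and 5-T2 lay below those of 2.5-T1, 5-T1, 10-T1a and 10-T1b, and at ALAD 10-T1a was lower still.

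Of 11 red cell surface and membrane genes 3 were lower in both pairs, RHCE, GYPB and SLC4A1, against 9.36% of all tested genes, and the median log2 ratio was -0.67 over the 10 with a peak in every library, EPB42 having none in 5-T2. Both single pairs gave a weaker median, -0.54 in the 2.5 µg pair and -0.31 in the 5 µg pair. Over all tested genes these medians were -0.31 and -0.20. SLC4A1, the anion exchanger band 3, was covered over 831 bp in 2.5-T4, 3178 bp in 2.5-T1, 707 bp in 5-T2 and 3478 bp in 5-T1, with 1405 bp in 10-T1a and 3534 bp in 10-T1b. RHCE, a Rh blood group gene, had 852, 2893, 1836 and 3204 bp, with 1957 and 2902 bp. GYPB, a glycophorin gene, had 985, 1846, 833 and 1938 bp, with 1946 and 1769 bp. EPB41, protein 4.1 of the membrane skeleton, differed little, at 8295, 8872, 8886 and 8743 bp. ANK1 had no peak within 5 kb of the TSS used here. The medians of 10-T1a over 10-T1b were -0.07 for the globin, -0.20 for the heme and iron and -0.14 for the red cell surface list, compared with -0.09 over all tested genes.

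Housekeeping genes had a median log2 ratio of -0.18, and 1 of 15, the chromatin remodeler gene SMARCA4, was lower in both pairs, near the 9.36% of all tested genes, with 2807, 5503, 3642 and 6316 bp. The elongation factor gene EEF1A1 had 7573, 6505, 7631 and 6893 bp, higher with excess antibody in both pairs, as was 10-T1a with 7914 bp over 10-T1b with 6888 bp. ACTB had 5825, 5856, 6180 and 6616 bp. Of the 12 genes of acetylation writers, readers and erasers none passed 1.5-fold in both pairs, with a median of -0.16. The histone deacetylase gene HDAC2 had the highest ratio of the list, with 2687, 2250, 2386 and 2009 bp. None of 12 STAT5 targets and survival genes passed either, with a median of -0.15, although SOCS3, the feedback inhibitor of cytokine signalling, had 2001, 4378, 2787 and 3806 bp, with 2641 and 4726 bp in 10-T1a and 10-T1b. BCL2L1 had 4258, 4961, 5064 and 5320 bp around its TSS, in 4, 1, 4 and 2 peaks.

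Of 11 immediate early genes 1 was higher in both pairs, FOS, against 1.43% of all genes, and none was lower, with a median of -0.16 that was -0.15 in the 2.5 µg pair and 0.02 in the 5 µg pair. FOS was covered over 2148 bp in 2.5-T4, 870 bp in 2.5-T1, 2551 bp in 5-T2 and 1469 bp in 5-T1, with 2559 bp in 10-T1a and 1762 bp in 10-T1b. EGR1 had 3437, 1580, 2837 and 1955 bp, with 3157 and 2361 bp, and FOSB had 3811, 3035, 3501 and 2744 bp, with 2592 and 2489 bp. At FOS and EGR1 2.5-T4, 5-T2 and 10-T1a had more covered bases than 2.5-T1, 5-T1 and 10-T1b, and at FOSB 2.5-T4 and 5-T2 stood above the other 4 of these libraries. JUND had the lowest ratio of the list, with 4882, 6625, 5646 and 6960 bp.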

How the data were processed

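H3K27ac ChIP-seq libraries of K562 were sequenced as read pairs, and 1 peak list per ChIP library was deposited. Per the labels reads were processed with CASAVA 1.4 and BWA 0.5.9 on hg38. The study's methods name hg19 and MACS2 in Partek Flow, with peaks called per library at an FDR of 1%, but the deposited −log10 q-values extend below that limit, so that a limit of 2 on this scale was set here. Positions were read as GRCh38, as the labels state. For each peak the authors deposited the −log10 p-value, the −log10 q-value and a fold enrichment over the arm's input, which ranks peaks within a list. Reads were not analysed here and the depth behind each list is not in the files.

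Covered length is the number of merged bases. TSSs were set for 19630 of 19974 protein-coding genes of the RefSeq annotation, 15812 from the promoter table and 3818 from the gene end by strand, so alternative TSSs were not considered. A peak was split when at least 2 peaks of the other list overlapped it by 1 bp or more. Genes were compared by covered bases within 5 kb of the TSS, with at least 500 bases in 1 library and a 1.5-fold rule in both pairs. The genes named were list members (each list by counts and by the members with the highest and lowest ratios), the 10 largest losses and gains, the 5 reference domains of largest loss and of most added pieces, and up to 5 genes whose promoter peak was absent in 1 arm. List members beyond the highest and lowest ratios, and the 3 promoters printed, were chosen after their values were seen. A gene among the largest gains and a list member with an extreme ratio are not reported here. The comparison, the lists and the measures were chosen with earlier results of these data known, and the TSS gap and its positions after the profile had been seen. Interval functions were tested on 300 simulated sets, with 0 disagreements with base-by-base counting. Alternatives were other q-value limits, equal list sizes, chromosomes 1 to 22 and X, other windows, overlaps and domain definitions, and each pair alone. Computation used Python 3.11.15, numpy 2.4.6, pandas 2.3.3 and matplotlib 3.10.9.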

Additional observations from a re-analysis of the deposited data

Results flagged for a closer look

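The peak number had opposite signs in the pairs, with a log2 ratio of 0.018 for 2.5-T4 over 2.5-T1 and -0.0030 for 5-T2 over 5-T1. With 1 library per condition this difference was not tested, and both values are of the size of the -0.0097 between 10-T1a and 10-T1b.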

How the results depend on the processing

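Values are means over the 2 pairs, fixed over normalized, and a value counts as moved when it changes by more than the SD of 10-T1a and 10-T1b. Covered length (log2 ratio -0.35), median width (-0.24), split share (7.997 points) and coverage of reference domains (-12.6 points) kept their direction and size under every alternative tried. Peak number (0.0074) was -0.068 at a −log10 q limit of 5, 0.014 with all deposited peaks and 0 by construction with lists of equal number, and -0.0030 to 0.018 in single pairs. Genes with a TSS peak (-0.016) gave -0.032 at a limit of 5, -0.013 with a 2 kb window, and -0.022 to -0.0091 in single pairs. At a limit of 5 the covered length within 1 kb of a TSS (-0.14) became -0.18, that more than 5 kb away (-0.40) became -0.54, and promoter minus distal (0.26) became 0.36, and with a 2 kb window the first was -0.21. The following alternatives were added after seeing the data. The share of gapped TSSs (11.6 points) was 9.77 to 13.3 in single pairs and kept its size under the others. Calls of lower genes were 748 to 1357 and of higher genes 131 to 164, and at a limit of 5, 616 of the 1065 lower and 50 of the 163 higher genes were shared. List medians moved at a −log10 q limit of 3 to -0.15 for erythroid transcription factors, -0.41 for globins and -0.10 for immediate early genes, and at a limit of 5 to -0.16 for erythroid transcription factors, -0.35 for globins, -0.71 for heme and iron, -0.16 for housekeeping and -0.24 for STAT5 targets. In a 2 kb window they moved to -0.061 for erythroid transcription factors, -0.21 for heme and iron, -0.53 for red cell surface, -0.10 for housekeeping and -0.066 for immediate early genes, which were at -0.10 with all deposited peaks. Of 552 values of 114 genes, 22 changed sign, none of a gene called in both pairs. The cause of these shifts was not tested. The number of libraries, 1 per condition, and sequencing depth, which the lists do not hold, limit every comparison.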
